A study of Danio rerio with 45 samples.

Results

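The 8 genes described here mark successive steps of neurogenesis in the zebrafish embryo: sox2, sox3, pax6a, her4.1, neurog1, neurod1, neurod4 and elavl3. They are 8 of the 13633 genes named on the array and were measured by 18 of its 43603 probes, all the non-control probes whose transcript accession maps to one of the 8 symbols. pax6a had 6 probes, sox3, her4.1, neurog1, neurod1 and neurod4 had 2 each, and sox2 and elavl3 had 1 each. Where a gene had several probes they are called brighter and dimmer, or numbered from the brightest, by their mean signal over all arrays. The members were listed by gene name and not by a cut on the values, though earlier results of these data were known.

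In the vertebrate neural tube, SoxB1 factors such as Sox2 and Sox3 keep neuroepithelial cells in a dividing, undifferentiated state. Proneural basic helix-loop-helix factors such as Neurogenin push single cells out of the cycle and raise Delta ligands on them, and Notch in the neighbouring cells answers by raising Hairy/E(spl) repressors such as Her4, which hold those neighbours back as progenitors. Cells that leave the progenitor pool switch on NeuroD factors and then neuronal RNA-binding proteins of the Elav family.

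The samples were pools of 20 whole embryos on 45 Agilent 1-colour arrays, 3 per genotype and stage, with stages from the 1-2 cell embryo over shield (gastrula) and 5-somite to 1 and then 2 days post fertilization (dpf). WT embryos were set beside embryos labelled dnmt3aa-/-, which the study describes as lacking both the maternal and the zygotic gene product (MZdnmt3aa-/-), and beside dnmt3bb.2-/- embryos. dnmt3aa and dnmt3bb.2 encode de novo DNA methyltransferases, and the labels do not say whether the mothers of the dnmt3bb.2-/- embryos were mutant, nor do they name a strain. The comparisons ask how far the loss of each enzyme altered RNA levels at each stage. Signals are log2 of the processed intensity after scaling each array to a trimmed mean of 2500, a probe was "well above background" where the scanner software flagged it so, and a probe was called where limma's adjusted p, over all probes tested in that comparison, was at most 0.01.

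On the arrays, 62.33% to 84.54% of features were well above background and no feature was saturated. The dnmt3bb.2 probe was called lower in dnmt3bb.2-/- at all 5 stages, with log2 differences between -2.68 and -0.80. The dnmt3aa probe reads RNA, so it does not show whether the gene product was lost. It was higher on the arrays labelled MZdnmt3aa-/- at every stage, by 0.54 to 0.95, and called at all but 2 dpf. Those arrays were scanned on a day, and lie on slides, that hold no WT array, so genotype, slide and scan day cannot be told apart for them. WT and dnmt3bb.2-/- shared scan days, and shared a slide at every stage but 5-somite.

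Replicate 1 of the arrays labelled MZdnmt3aa-/- at 1-2 cell stood apart. There, 629 other probes that are dim in WT at 1-2 cell (mean below 4) and bright at 1 dpf (above 12) had a median of 6.28, against 2.36 and 2.19 on replicates 2 and 3 and 2.09 to 2.60 on the 6 arrays of the other genotypes. The same array gave neurod1 (brighter probe) 8.12 against 3.09 and 3.11, neurod4 (brighter) 7.85 against 3.24 and 2.39, and her4.1 (brighter) 6.58 against 2.10 and 2.00. Replicate 3 of the arrays labelled MZdnmt3aa-/- at 1 dpf lay above both other replicates for all 18 probes. The counts and calls that rest on these arrays are given with and without them.

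**Figure D1:**
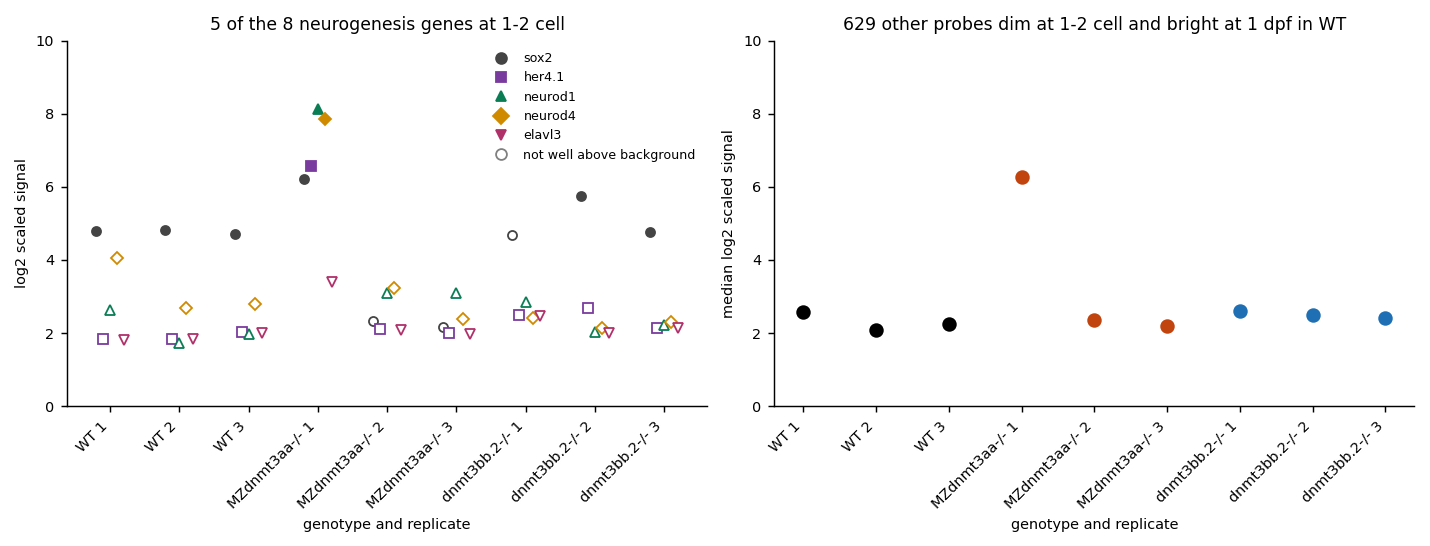
Signal at 1-2 cell on the 9 arrays of that stage (x axis, genotype and replicate; y axis, log2 scaled signal). The left panel shows the brightest probe of 5 of the 8 genes, with open symbols for signals not well above background, and the right panel the median of 629 other probes that are dim at 1-2 cell and bright at 1 dpf in WT. Replicate 1 labelled MZdnmt3aa-/- lies at 6.28 in the right panel and the other 8 arrays at 2.09 to 2.60.

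In WT, sox2 and sox3 were high from shield, and pax6a, her4.1, neurog1 and both neurod genes reached high signal by 5-somite. elavl3 was also called higher by then, and pax6a, her4.1, neurod1, neurod4 and elavl3 each had a probe called higher again from 1 to 2 dpf. The sampled stages give no order among the genes that rose between shield and 5-somite. The median probe itself moved by -0.32 between 1-2 cell and shield and by 0.26 between shield and 5-somite, so the small early differences are read against that shift. In whole embryos, fewer cells of a type and less RNA per cell cannot be told apart. From shield to 5-somite, 15 probes were called higher and 3 lower of 18, against 76.6% of all probes called. The WT stages scanned on different days were 5-somite against any other, so stage and scan day cannot be told apart in the 2 WT comparisons that involve 5-somite. The arrays labelled MZdnmt3aa-/- were all scanned on 1 day. There the brightest pax6a probe had means of 2.87 at shield and 12.39 at 5-somite. The brighter sox3 probe had 16.21 at shield, 14.92 at 5-somite and 15.46 at 1 dpf. The part of scan day in the WT steps was not tested.

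sox2, a SoxB1 factor of neural progenitors, gave 4.78, 4.83 and 4.72 in WT at 1-2 cell and 14.25, 14.27 and 14.13 at shield. That rise was 9.44 ± 0.05 (SE) on the log2 scale (adjusted p = 1.42e-08), one of 3 probes called higher between those stages, with 2 lower, of 9 tested, against 83.8% of all probes. It then stayed near its peak, with a 5-somite mean of 13.87 ± 0.03 (SD, n = 3), a 1 dpf mean of 13.95 ± 0.06 and a 2 dpf mean of 13.62 ± 0.15. It fell by 0.35 from shield to 5-somite (adjusted p = 0.00137), a difference of -0.61 relative to the median probe, whereas 5-somite and 1 dpf (adjusted p = 0.162) and 1 dpf and 2 dpf (0.0194) did not pass the threshold. In WT, shield was thus the highest stage of sox2, and the steps from 5-somite to 1 dpf and from 1 to 2 dpf did not pass.

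sox3, its close relative, was above background already at 1-2 cell, at 7.13, 6.39 and 6.72 on the brighter probe. It rose to 15.80 ± 0.03 at shield, fell to 14.82 ± 0.05 at 5-somite, rose to 15.67 ± 0.02 at 1 dpf and fell to 14.21 ± 0.11 at 2 dpf. Both sox3 probes passed the test at each of these 4 steps, so that shield and 1 dpf form peaks with a trough between them. Between 5-somite and 1 dpf, 15 probes in all were called higher and 0 lower, against 73.2% of all probes called and 37.0% called higher.

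pax6a, a homeodomain factor of the forebrain, eye, hindbrain and spinal cord, was not reliably seen before somite stages. Of its 6 probes, 1 was well above background on any WT array at 1-2 cell and 2 at shield, and all 6 were above it on every array from 5-somite on. The brightest gave 3.84, 2.51 and 3.62 at shield, none well above background, and 12.65, 12.73 and 12.60 at 5-somite, at least 309.9-fold higher as a bound set by the background. The later steps were small: 0.24 ± 0.06 (SE) from 5-somite to 1 dpf (adjusted p = 0.00834) and 0.39 ± 0.14 from 1 to 2 dpf (0.0472). Of the 6 probes, 5 were called higher at the first of these steps and 2 at the second. The call of the brightest probe at the first step was lost without WT replicate 1 or 3 of 5-somite or replicate 2 or 3 of 1 dpf.

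her4.1, a Hairy/E(spl) repressor induced by Notch, lay below background on all 6 early WT arrays. Its brighter probe went from 2.81, 3.00 and 3.91 at shield to 12.50, 12.48 and 12.34 at 5-somite, at least 267-fold, and the dimmer probe at least 118-fold. It went on rising to 13.80 ± 0.07 at 1 dpf and 14.48 ± 0.25 at 2 dpf. her4.1 lies in a tandem cluster of near-identical her4 copies, so its signal may come from more than 1 of them.

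neurog1, the proneural factor of sensory ganglia and of many central neurons, had more signal at 1-2 cell than at shield. The brighter probe gave 8.87, 8.81 and 8.83 at 1-2 cell, where the embryo's RNA is maternal, and 6.18, 6.39 and 6.60 at shield. It fell by 2.44 (SE 0.11, adjusted p = 5.82e-06) and the dimmer probe fell by 2.87 (0.11, 2.55e-06). It then rose to 12.86 ± 0.08 at 5-somite. At 1 dpf it was at 12.95 ± 0.02, a step that missed the threshold (adjusted p = 0.159), and it fell to 12.50 ± 0.11 at 2 dpf (0.00204).

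neurod1, a differentiation factor of neurons and of endocrine cells, was below background at both early stages on every WT array and climbed at each later one. The brighter probe gave 10.70 ± 0.04 at 5-somite, 12.24 ± 0.03 at 1 dpf and 14.79 ± 0.16 at 2 dpf. Its last step, 2.54 ± 0.09 (SE, adjusted p = 5.87e-06), was the largest of any member between 1 and 2 dpf. The dimmer probe ran parallel, at 5.66 ± 0.29, 7.17 ± 0.06 and 9.54 ± 0.12. neurod4, another NeuroD-family factor, went from 11.68 ± 0.04 to 14.12 ± 0.04 and 14.81 ± 0.12.

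elavl3 (HuC), a neuronal RNA-binding protein and a common marker of newly formed neurons, gave 9.68, 9.57 and 9.42 at 5-somite, 10.95, 10.79 and 10.70 at 1 dpf, and 11.50, 11.87 and 11.48 at 2 dpf. These stages do not overlap and both steps were called (adjusted p = 6.56e-05 and 0.00219). Over all probes tested, 85.3% and 76.7% had no overlap at these steps. At shield 1 WT array stood apart, at 6.61 against 3.61 and 2.40, and the same array gave the sixth pax6a probe 5.63 against 2.52 and 2.28. The elavl3 rise from shield to 5-somite was 5.35 ± 1.08 (SE, adjusted p = 0.0047) with that array, the only 1 of the 3 well above background, and at least 36.6-fold without it, and its call was lost without replicate 2 of shield or any 1 array of 5-somite.

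Between 1 and 2 dpf, 8 probes were called higher and 4 lower of 18, against 56.5% of all probes: pax6a, her4.1, neurod1, neurod4 and elavl3 rose and sox3 and neurog1 fell. The count of 12 was 7 without replicate 2 or 3 of 1 dpf, 8 without replicate 1 of 1 dpf and 16 without replicate 1 of 2 dpf. Whether it moved more than the count over all probes was not tested. The sox3, neurod1 and neurod4 calls held on both probes whichever array was left out.

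**Figure D2:**
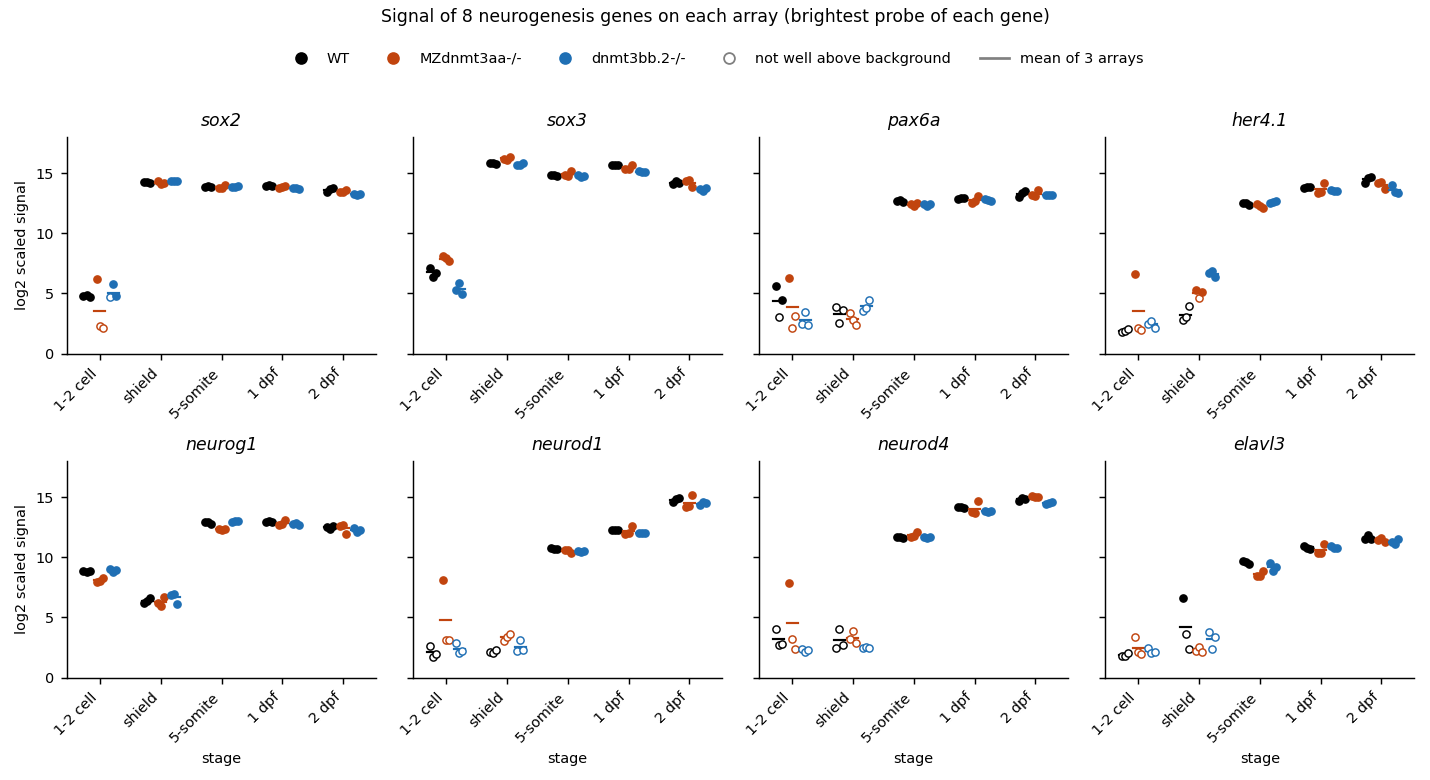
Log2 scaled signal (y axis) of the brightest probe of each gene on all 45 arrays, by stage (x axis) and genotype (colour), with short lines for the mean of 3 arrays and open circles for signals not well above background. sox2 and sox3 are high from shield, the other 6 genes from 5-somite, and at shield her4.1 is well above background on all 3 dnmt3bb.2-/- arrays and on none of WT.

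On the arrays labelled MZdnmt3aa-/-, few of the 18 probes were called against WT. At 5-somite, the proneural gene neurog1, on 1 of its 2 probes, and the neuron marker elavl3 were lower. At 1-2 cell, sox3 was called higher and neurog1 lower, and the sox3 calls were lost without any 1 of these arrays. At shield, 1 dpf and 2 dpf no probe of the 8 genes was called. The arrays spread widely at 1 dpf, with a median SD over the 18 probes of 0.302 against 0.0481 in WT. Without replicate 3, 9 probes were called lower at that stage.

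At 1-2 cell, 2 probes were called higher and 1 lower of 13 tested, against 57.3% of all probes. sox3 (brighter probe) gave 8.08, 7.91 and 7.65 against 7.13, 6.39 and 6.72 in WT, so that all 3 arrays lay above all 3 WT arrays. It was higher by 1.13 ± 0.22 (SE, adjusted p = 0.00636), and the dimmer probe by 1.37 ± 0.25 (0.00499). neurog1 (brighter probe) gave 7.93, 7.99 and 8.28 against 8.87, 8.81 and 8.83, with no overlap, and fell by 0.77 (SE 0.10, adjusted p = 0.00141). Its dimmer probe did not overlap WT either but missed the threshold, at -0.56 ± 0.16 (0.0227). Of the 13 probes tested here 5 had no overlap, against 76.2% of all probes tested. Both sox3 calls were lost without WT replicate 3 or any 1 of the arrays labelled MZdnmt3aa-/-, and that of the brighter probe also without WT replicate 2.

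Without replicate 1, which stood apart, 0 probes were called higher and 3 lower at 1-2 cell, of 6 tested, against 54.2% of all probes. The 3 were both neurog1 probes (-0.70 and -0.40) and sox2. sox2 gave 2.32 and 2.16 on the 2 remaining arrays, neither well above background, against 4.72 to 4.83 in WT, and was at least 1.47-fold lower (adjusted p = 7.25e-05). sox3 kept its sign there, at 1.03 and 1.31, but no longer passed (adjusted p = 0.0187 and 0.0161). The high neurod1, neurod4, her4.1 and sox2 values of replicate 1 are thus not shared by the other arrays with the same label.

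At shield, 0 of 9 probes tested were called by limma, against 12.3% of all probes, and 3 had an unadjusted p below 0.05. her4.1 (brighter probe) was nearest to the threshold, with 5.31, 4.60 and 5.11, of which 2 were well above background, against 2.81, 3.00 and 3.91, none well above it (adjusted p = 0.0153). sox3 (brighter probe) gave 16.19, 16.11 and 16.34 against 15.83, 15.80 and 15.78, a difference of 0.41 ± 0.10 (SE, adjusted p = 0.0341). The groups do not overlap for either gene, and 53.2% of all probes tested had no overlap either. A scale was taken over 8359 other probes that differ at least 4-fold between WT at shield and 5-somite. With 0 for the WT mean at shield and 1 for that at 5-somite, the arrays labelled MZdnmt3aa-/- stood at 0.0759, 0.0723 and 0.0174. The WT arrays lay between -0.0051 and 0.00405. Towards WT at 1-2 cell (12782 probes), the arrays labelled MZdnmt3aa-/- stood at 0.0295, 0.0239 and 0.0846. The part of these differences in the genes' levels was not tested.

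At 5-somite, 2 of 18 probes were called, both lower, against 21.3% of all probes called and 11.5% called lower, so that the share of these genes called was not above the background. elavl3 had the widest gap, 8.46, 8.46 and 8.86 against 9.68, 9.57 and 9.42, a fall by 0.96 (SE 0.14, adjusted p = 0.00499). neurog1 fell on its brighter probe only, with 12.33, 12.28 and 12.37 against 12.92, 12.89 and 12.76 (-0.53, SE 0.08, adjusted p = 0.00443), whereas its dimmer probe gave 11.76, 11.66 and 12.08 against 11.92, 11.91 and 11.81 (-0.05, SE 0.13, 0.763). The 2 neurog1 probes therefore disagree at this stage.

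The progenitor genes did not pass at 5-somite: sox2 differed by -0.02 ± 0.10 (SE), sox3 by 0.10 ± 0.12 and the brightest pax6a probe by -0.27 ± 0.09 (adjusted p = 0.0529). Neither call held without any 1 WT array, without replicate 1 or 2 labelled MZdnmt3aa-/-, or with slide as a random block. Both differences stayed negative in each of these fits. Without 1 of these arrays, the calls over all probes fell as well, from 7565 to between 1932 and 3842. At this stage epidermis markers had 3 of 21 probes higher and 0 lower and erythroid markers 4 higher and 3 lower of 11, and their part in the result was not tested. On the scale from 0 for WT at 5-somite to 1 for WT at shield, the arrays labelled MZdnmt3aa-/- stood at 0.0319, 0.0441 and 0.0693. The WT arrays lay between -0.00491 and 0.00442. Towards WT at 1 dpf (6110 probes), the arrays labelled MZdnmt3aa-/- stood at 0.0474, 0.0695 and -0.0187. elavl3 and neurog1 rose in WT from shield to 5-somite. The part of these differences in the genes' levels was not tested.

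At 1 dpf, 0 of 18 probes were called by limma, against 20.8% of all probes, 0 had an unadjusted p below 0.05, and 1 array lay apart. neurod4 (brighter probe) gave 13.72, 13.71 and 14.70 against 14.14, 14.13 and 14.08 in WT, with 2 arrays below WT and 1 above, and elavl3 gave 10.34, 10.34 and 11.06 against 10.95, 10.79 and 10.70. Replicate 3 was the high array each time. Over 3330 probes that differ at least 4-fold between WT at 1 and 2 dpf, on a scale of 0 for the WT mean at 1 dpf and 1 for that at 2 dpf, it stood at 0.168 and replicates 1 and 2 at -0.0858 and -0.0704, while the WT arrays lay between -0.00362 and 0.00433. The part of that difference in the genes' levels was not tested.

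Without replicate 3, 9 of the 18 probes were called lower at 1 dpf and 0 higher, against 43.0% of all probes. They were the brighter sox3 probe (-0.31), 2 of the 6 pax6a probes (-0.42 and -0.39), both her4.1 probes (-0.41 and -0.51), the brighter neurog1 probe (-0.24), both neurod4 probes (-0.40 and -0.49) and elavl3 (-0.48). sox2, at -0.16, did not pass. Erythroid markers were lower at this stage too, with 7 of 11 probes called lower and 0 higher over all 3 arrays (log2 of their summed signal 17.27 to 18.89 against 20.28 to 20.30 in WT). Without replicate 3, 11 of 11 erythroid, 11 of 15 muscle, 10 of 17 oocyte and egg and 7 of 9 liver and yolk syncytial layer probes were called lower. Their part in the result was not tested.

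At 2 dpf, 0 of 18 probes were called by limma with all arrays, against 12.6% of all probes, and 1 had an unadjusted p below 0.05. Without replicate 3, 0 were called, against 17.2%. That array again differed from its group, with neurod1 (brighter) at 15.19 against 14.15 and 14.23 and sox3 (brighter) at 13.84 against 14.37 and 14.39. On the scale from 0 for WT at 2 dpf to 1 for WT at 1 dpf it stood at -0.02 and the other 2 at 0.177 and 0.15. The WT arrays lay between -0.00563 and 0.00276, and the part of that difference in the genes' levels was not tested. The widest difference from WT was that of the dimmer her4.1 probe, 12.91, 12.96 and 12.27 against 13.20, 13.52 and 13.47 (-0.68, SE 0.21, adjusted p = 0.0527).

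**Figure D3:**
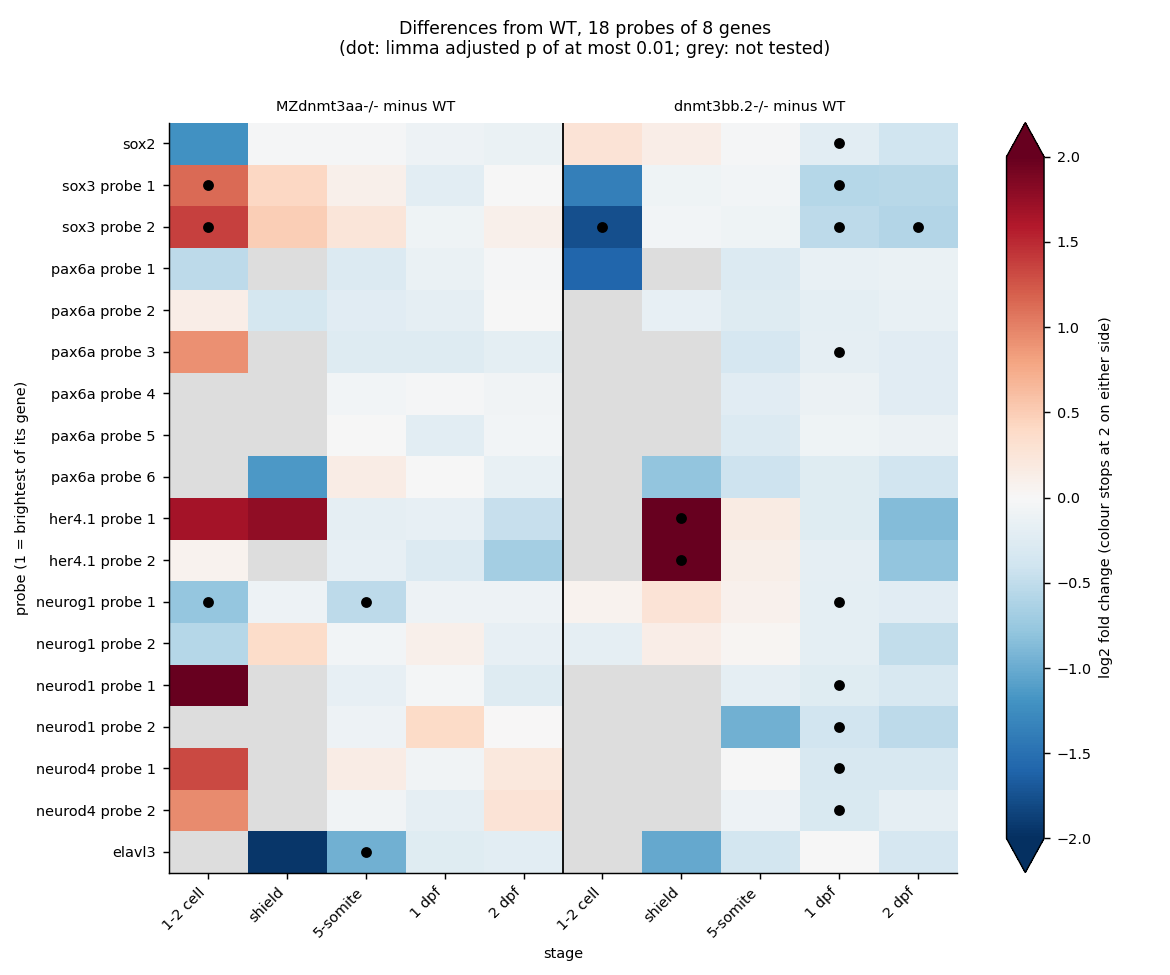
Log2 fold change from WT (colour, stopped at 2 on either side) of the 18 probes (rows) at 5 stages in each mutant (columns), with a dot where limma's adjusted p was at most 0.01 and grey where a probe was not tested. The arrays labelled MZdnmt3aa-/- have 5 dots, 2 of them at 5-somite, and dnmt3bb.2-/- has 13, 9 of them at 1 dpf.

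In dnmt3bb.2-/-, the probes that were called differed from stage to stage. That is no test of a change between stages, and the direct test called 7 of 18 probes, against 59.1% of all probes. The dimmer sox3 probe was called lower at 1-2 cell, 1 dpf and 2 dpf, the last call being lost whichever array was left out. her4.1 was called higher at shield. At 1 dpf 6 of the 8 genes had a probe called lower, 9 of 18 probes, against 24.1% of all probes. elavl3 passed at no stage.

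At 1-2 cell, 0 probes were called higher and 1 lower of 6 tested, against 31.4% of all probes called and 16.3% called lower. sox3 (dimmer probe) gave 4.25, 4.68 and 4.72, 2 of them well above background, against 6.76, 5.85 and 6.33 and fell by 1.76 (SE 0.27, adjusted p = 0.00419), and the brighter probe differed by -1.37 ± 0.30 (0.0141). The sox3 groups do not overlap on either probe, and 64.6% of all probes tested had no overlap either. On the slide that held 3 WT arrays and 1 mutant array, the brighter probe differed by -1.47. The sox3 call was lost without replicate 1 or 3 of either genotype, and without mutant replicate 2 the brighter probe was called too.

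At shield, 2 probes were called higher and 0 lower of 10 tested, against 51.5% of all probes. her4.1 was the member with the widest change: the brighter probe gave 6.73, 6.84 and 6.34, all well above background, against 2.81, 3.00 and 3.91 in WT, none above it. It was at least 4.77-fold higher (adjusted p = 0.000395), and the dimmer probe, at 5.90, 5.73 and 4.95 against 2.48, 2.41 and 2.46, at least 2.21-fold (0.000236). The 3 mutant arrays lay above all 3 WT arrays on both probes, a pattern that 38.9% of all probes tested showed. Against the 1 WT array on the same slide, not well above background on either probe, the 3 mutant arrays were at least 4.76-fold and 2.21-fold higher. Both calls held whichever array was left out, but only 1 of the 2 remained with signals floored at 32. The adjusted p-values test the measured signals, which in WT were not well above background, and not the bounds. neurog1, the proneural gene, did not pass (0.27 ± 0.26, SE, adjusted p = 0.403, on the brighter probe).

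Over 8359 other probes that differ at least 4-fold between WT at shield and 5-somite, on a scale of 0 for the WT mean at shield and 1 for that at 5-somite, the dnmt3bb.2-/- shield arrays stood at 0.0774, 0.0615 and 0.0529 and the WT arrays between -0.0051 and 0.00405. Towards WT at 1-2 cell (12782 probes), the mutant arrays stood at 0.00671, 0.0158 and 0.0141 and the WT arrays between -0.00237 and 0.00107. her4.1 is among the genes that rose in WT between shield and 5-somite. Muscle markers had 1 probe higher and 5 lower of 12 at shield, epidermis markers 6 higher and 2 lower of 21, and oocyte and egg markers 6 higher and 3 lower of 19. Liver and yolk syncytial layer markers had 4 higher and 2 lower of 8, and erythroid markers 3 higher and 0 lower of 7. The part of these differences in the her4.1 result was not tested.

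At 5-somite, 0 of 18 probes were called by limma, against 35.8% of all probes called and 18.9% called lower, and 9 had an unadjusted p below 0.05. The comparison of this stage with the arrays labelled MZdnmt3aa-/- uses the same 3 WT arrays. her4.1 (brighter probe) gave 12.55, 12.61 and 12.66 against 12.50, 12.48 and 12.34, a difference of 0.17 ± 0.07 (SE, adjusted p = 0.0837) that missed the threshold. Of the 6 pax6a probes, which read 1 gene on the same arrays, none was called. All 6 differences were negative (-0.23 to -0.41), and the median over all probes tested was -0.02. Over all 18 probes, 1 lay above and 9 below WT without overlap, against 64.1% of all probes without overlap, and the 9 include 5 of the 6 pax6a probes. At this stage each genotype filled slides of its own, so slide and genotype cannot be told apart. On the scale from 0 for WT at 5-somite to 1 for WT at shield, the mutant arrays stood at 0.0362, 0.0589 and 0.0417. The WT arrays lay between -0.00491 and 0.00442. Towards WT at 1 dpf, the mutant arrays stood at -0.0124, -0.00284 and 0.0105. The part of these differences in the genes' levels was not tested.

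At 1 dpf, 9 of 18 probes in 6 genes were called, all lower, against 46.9% of all probes called and 24.1% called lower. The share called lower was thus above the background. For 16 probes the 3 mutant arrays lay below all 3 WT arrays, a pattern that 36.2% of all probes showed. The differences were small. sox3 had the widest, with 15.05 to 15.13 on the 3 mutant arrays against 15.66, 15.69 and 15.66 on the brighter probe, and fell by 0.57 (SE 0.03, adjusted p = 6.52e-05).

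Of the other progenitor genes at 1 dpf, sox2 and 1 pax6a probe were called, with smaller differences, and her4.1 was not. sox2 gave 13.74, 13.75 and 13.71, all below the lowest WT value of 13.89, and fell by 0.21 (SE 0.04, adjusted p = 0.00576). Of pax6a, the third probe alone was called (-0.19), and the other 5 lay between -0.09 and -0.24. her4.1 just missed, with 13.63, 13.50 and 13.53 against 13.73, 13.86 and 13.81 (-0.25 ± 0.05, adjusted p = 0.0101).

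The proneural gene neurog1 fell by 0.20 on its brighter probe (0.00599), and the dimmer one missed (0.0139). The differentiation factors neurod1 (-0.23 and -0.38) and neurod4 (-0.31 and -0.31) were called on both probes. elavl3 did not follow them: 10.94, 10.73 and 10.75 overlap 10.95, 10.79 and 10.70, with a difference of -0.01 ± 0.09 (SE, adjusted p = 0.947).

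The 1 dpf count rests on small errors. It was 4, 3 and 7 without WT replicate 1, 2 or 3, 7, 6 and 5 without mutant replicate 1, 2 or 3, 3 with slide as a fixed term, and 2 in a fit that shares its error over all 45 arrays, where the sox3 probes were the 2. Whether the count fell more than that of all probes in these fits was not tested. The calls of sox3 (both probes) and of the dimmer neurod1 probe held whichever array was left out. On the slide that held 3 WT arrays and 1 dnmt3bb.2-/- array, 17 of the 18 probes were negative, elavl3 being the other (0.12). That mutant array is also in the main fit, and the share over all probes was not counted. Epidermis markers moved at the same stage: 15 of 21 probes were called lower and 0 higher, and the log2 of their summed signal was 21.18 to 21.22 against 21.46 to 21.50 in WT, with every probe above background on some array of each group. Oocyte and egg markers had 1 probe higher and 10 lower of 17, with a log2 summed signal of 12.07 to 12.14 against 12.87 to 12.92 in WT and 7 of 19 probes above background on no mutant array. Muscle markers had 6 probes higher and 2 lower of 15. On the scale from 0 for WT at 1 dpf to 1 for WT at 5-somite, the mutant arrays stood at 0.0208, 0.023 and 0.0159. Towards WT at 2 dpf they stood at 0.0138, 0.0149 and 0.0299. The WT arrays lay between -0.00124 and 0.00102 on the first scale and between -0.00362 and 0.00433 on the second. The part of the markers and of these scales in the result was not tested.

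At 2 dpf, 1 of 18 probes was called, lower, against 14.9% of all probes called and 8.61% called lower. It was the dimmer sox3 probe, with 13.24, 13.07 and 13.27 against 13.73, 13.93 and 13.70, which fell by 0.59 (SE 0.11, adjusted p = 0.00933). This call was lost whichever of the 6 arrays was left out. All 18 differences were negative (median -0.33, against -0.06 over all probes tested). Probes of 1 gene read the same RNA on the same arrays, so the 18 are not separate results. Of them, 10 had no overlap with WT, against 30.1% of all probes without overlap in that direction. her4.1 (brighter probe) gave 14.03, 13.45 and 13.36 against 14.19, 14.60 and 14.65 and missed the threshold (-0.86 ± 0.22, adjusted p = 0.0264). On the scale from 0 for WT at 2 dpf to 1 for WT at 1 dpf, the mutant arrays stood at 0.121, 0.0759 and 0.102. The WT arrays lay between -0.00563 and 0.00276. In WT, sox3 was higher and her4.1 lower at 1 dpf than at 2 dpf. The part of the difference on that scale in the genes' levels was not tested.

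**Figure D4:**
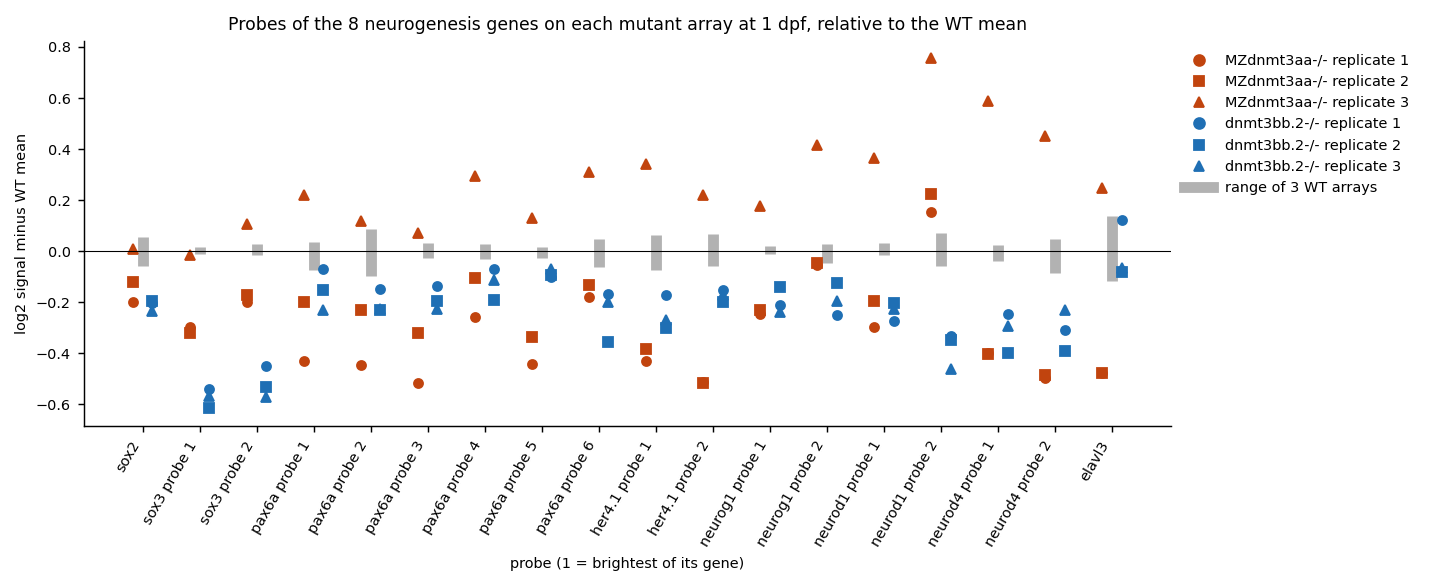
Log2 signal at 1 dpf minus the WT mean (y axis) for the 18 probes (x axis) on each mutant array, with grey bars for the range of the 3 WT arrays. The dnmt3bb.2-/- arrays lie below the WT range for 16 of 18 probes, and replicate 3 labelled MZdnmt3aa-/- (triangles) lies above its 2 companions for all 18.

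Whether the difference from WT itself varied between stages was tested with limma's F test over the 30 arrays of WT and each mutant. For the arrays labelled MZdnmt3aa-/-, 2 of 18 probes were called, against 49.7% of all probes: the sox3 probes (adjusted p = 0.000201 and 0.000187). The sox3 differences ran from 1.13 at 1-2 cell through 0.41 at shield and 0.10 at 5-somite to -0.21 at 1 dpf on the brighter probe. At 2 dpf its mean was 14.20 against 14.21 in WT, so the fall did not go on. Both calls held without replicate 1 of 1-2 cell (0.00108 and 0.000986), without replicate 3 of 1 dpf (0.000154 and 0.000161) and without replicate 3 of 2 dpf (9.59e-05 and 0.000104). The count was 6 without the first of these arrays, against 47.8% of all probes, with sox2, both her4.1 probes and the brighter neurod1 probe added, and 3 without the last, with the brighter neurog1 probe added. For dnmt3bb.2-/-, 7 probes in 4 genes were called, against 59.1% of all probes. her4.1 had the smallest adjusted p (3.53e-10 and 5.83e-09), with at least 4.77-fold more signal at shield and a difference of -0.86 at 2 dpf on the brighter probe. Its signals in WT at 1-2 cell and shield were not well above background, and with signals floored at 32 both calls held (2.49e-09 and 0.000322).

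Other genes of the same processes were counted from 4 lists chosen with earlier results of these data known. In dnmt3bb.2-/- at 1 dpf, neural progenitor genes had 4 probes higher and 22 lower of 30 (median -0.26, against -0.02 over all probes), so that 73.3% were lower against 24.1% of all probes. Among them sox1b, another SoxB1 factor, fell by 0.99, and fabp7a (a fatty acid binding protein of radial glia) by 0.85. Of the marker probes, 71.4% of epidermis, 58.8% of oocyte and egg and 33.3% of liver and yolk syncytial layer were lower there. The share was 13.3% for muscle and 0% for erythroid. These list shares are over all arrays, and the member count of this comparison fell to between 3 and 7 with 1 array left out. Notch pathway genes had 8 higher and 22 lower of 57 (38.6% lower), with notch1b higher by 1.17, and the Hairy/E(spl) gene her12 fell by 1.62. Other proneural genes had 4 higher and 14 lower of 38 (36.8% lower), and neuron differentiation genes 1 higher and 16 lower of 54 (29.6% lower), nearest to the share of all probes.

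At shield in dnmt3bb.2-/-, where her4.1 was higher, Notch pathway genes had 14 probes higher and 8 lower of 52, or 42.3% called against 51.5% of all probes. The receptor gene notch1b, not well above background in WT, was at least 1.49-fold higher. On the log2 scale rbpjb, a DNA-binding partner of Notch, was higher by 1.35 and her2, a Hairy/E(spl) gene, by 3.36. The ligand gene jag1a fell by 1.61 and mib1, which promotes ligand endocytosis, by 1.11, each on the probe with the widest called difference of its 3. The pathway thus held calls in both directions at that stage. The same her2, rbpjb and mib1 probes were called in the same directions on the arrays labelled MZdnmt3aa-/- at shield. There her2 had a mean of 8.47 against 5.83 in WT, rbpjb 9.97 against 9.06 and mib1 8.48 against 9.73. In that comparison, which uses the same WT arrays, Notch pathway genes had 4 probes higher and 2 lower of 54. That was 11.1% called against 12.3% of all probes. The same mib1 probe was called lower in both mutants at 5-somite and at 2 dpf too, so its fall was not particular to shield.

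At 5-somite on the arrays labelled MZdnmt3aa-/-, neuron differentiation genes had 0 probes higher and 12 lower of 45 (median -0.49, against -0.05 over all probes), or 26.7% lower against 11.5% of all probes. stmn2a, a stathmin of growing axons, was at least 4.74-fold lower on 1 probe, that with the widest called difference of its 6. No mutant array was well above background on it. In WT that probe had a mean of 8.64 at shield and 6.57 at 5-somite, so it did not rise between these stages. rtn1b, a reticulon with 2 probes, fell by 2.13 on the probe with the widest difference. Notch pathway genes had 0 higher and 7 lower of 57 (12.3%), with notch1a at -1.11. Progenitor genes had 0 higher and 3 lower of 30, and other proneural genes 1 higher and 5 lower of 34, shares near that of all probes. With slide as a random block, 378 of 35496 probes were called in this comparison, against 7565 without it. In dnmt3bb.2-/- at 5-somite, set against the same WT arrays, neuron differentiation genes had 4 probes higher and 15 lower of 45. That was 33.3% lower against 18.9% of all probes, and stmn2a was at least 4.85-fold lower on the same probe. At 1 dpf on the arrays labelled MZdnmt3aa-/-, neuron differentiation genes had 0 higher and 6 lower of 54 (11.1% called) and Notch pathway genes 1 higher and 4 lower of 57 (8.77%), both below the 20.8% of all probes. Without replicate 3, an alternative chosen after seeing the data, they had 1 higher and 24 lower (46.3%) and 6 higher and 18 lower (42.1%), near the 43.0% of all probes.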

How the data were processed

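RNA from pools of 20 embryos was hybridised to Agilent 1-colour zebrafish arrays (design 026437), and, per the study's methods, a service provider extracted the spots. The submitters' processing notes name Feature Extraction 12.0.3.1, whose processed signal is background-corrected. The deposited intensity (processed signal, linear) was scaled here so that each array's mean, after trimming 2% at either end, was 2500, and log2 was taken. The deposited value table holds the same scaled intensity. Control spots and spots marked as outliers were left out and spots of 1 probe averaged. Of 43603 probes, 26421 had a symbol through their accession.

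Each stage was fitted alone with limma 3.58.1 (R 4.3.3), 3 against 3 arrays, with Benjamini-Hochberg adjustment over all tested probes, meaning those that at least 1 of the 6 arrays showed well above background. The test of a difference between stages used 30 arrays. The fit was tested on simulated data. The labels number 3 replicates per group, which the study calls biological. Nothing says that they came from separate crosses, so p-values measure the spread between these pools. Same-numbered samples were not paired: in none of the comparisons did all 3 pairs of arrays deviate together with a correlation above 0.1. Alternatives covered the scaling, background correction, normalization, filters, error model, slide, replicate block, threshold and each array left out. List counts without an array that stands apart were an alternative chosen after seeing the data.

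The members and the gene lists were chosen with earlier results of these data known. Some genes of the same group are not reported here. The 8 members are all named, and of each list up to 3 genes per direction could be named, those with the widest called difference that every array of the higher group showed well above background. Each such list gene is given by 1 probe, that with the widest such difference. Where 1 group was not well above background on any array, the fold is a bound: the dim group is set on each array to the lowest signal among probes well above background, or to its own signal if higher. An adjusted p printed with such a bound tests the measured signals and not the bound. A fold with 2 arrays in a group assumes that they vary like the rest. The number of arrays limits the precision.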

Additional observations from a re-analysis of the deposited data

Results flagged for a closer look

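The difference from WT varied between stages for 9 of the tests on these genes, by limma's F test over 5 stages and 30 arrays. They were 2 of 18 for the arrays labelled MZdnmt3aa-/-, against 49.7% of all probes, and 7 of 18 for dnmt3bb.2-/-, against 59.1%. Both shares lay below that of all probes. On the arrays labelled MZdnmt3aa-/- the tests called were those of sox3 on both probes (adjusted p = 0.000201 on the brighter and 0.000187 on the dimmer). Both held without each array that stands apart. The sox3 difference of the dimmer probe was 1.37 at 1-2 cell and -0.09 at 1 dpf, and its 2 dpf mean was 13.89 against 13.79 in WT.

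In dnmt3bb.2-/-, sox3 (0.000108 on the brighter probe and 7.54e-07 on the dimmer) was called lower on the dimmer probe at 1-2 cell, 1 dpf and 2 dpf, with -0.05 at shield. her4.1 (3.53e-10 and 5.83e-09) was higher at shield and had differences of -0.86 and -0.79 at 2 dpf. The dimmer neurod1 probe (0.00354) had -0.96 at 5-somite, where 2 of 3 mutant arrays were well above background, and -0.38 at 1 dpf. The fifth pax6a probe (6.55e-05) and the third (0.00116) were not well above background at 1-2 cell or shield in WT or dnmt3bb.2-/-, and both calls were lost when signals were floored at 32 (0.02 and 0.038).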

How the results depend on the processing

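Of 68 called fold changes, 1342 values under the alternatives gave 1147 past the threshold, 195 not, and 0 with the sign turned. Most of the 68 were differences between WT stages. The threshold of 0.05 could lose no call, and the deposited value table holds the same intensities. The total is therefore no measure of how well the mutant calls held. The count of probes called on the arrays labelled MZdnmt3aa-/- was 3 at 1-2 cell (1 to 3 when 1 array was left out, 5 with an error shared over all 45 arrays), 0 at shield (0 to 0, 1 without the filter on dim probes, 1 with a trended and robust error, 2 with the shared error, 1 with slide as a random block, 3 at a threshold of 0.05), 2 at 5-somite (0 to 2, 0 with the shared error, 0 with the slide block, 0 if a 2-fold change was required), 0 at 1 dpf (0 to 9) and 0 at 2 dpf (0 to 0). In dnmt3bb.2-/- it was 1 at 1-2 cell (0 to 2, 0 with signals floored at 32, 0 with normexp background correction, 2 with the trended error, 2 with the shared error, 0 with slide as a fixed term, 2 at 0.05), 2 at shield (2 to 2, 1 with the floor), 0 at 5-somite (0 to 0, 1 with the floor, 3 with normexp, 2 with the trended error, 1 with the shared error, 7 at 0.05), 9 at 1 dpf (3 to 7, 14 with the trended error, 2 with the shared error, 3 with the slide term, 15 at 0.05, 0 at 2-fold) and 1 at 2 dpf (0 to 1, 0 with 75th percentile scaling, 2 with the floor, 2 with normexp, 2 with quantile normalization, 0 without the dim filter, 2 with a stricter filter, 5 with the trended error, 2 with the shared error, 0 with the slide term, 9 at 0.05, 0 at 2-fold). Between WT stages it was 5 at shield (5 to 5), 18 at 5-somite (16 to 18), 15 at 1 dpf (12 to 15, 7 with the shared error, 7 at 2-fold) and 12 at 2 dpf (7 to 16, 5 with the shared error, 6 with the slide block, 4 at 2-fold). The test of a difference between stages called 2 probes for MZdnmt3aa-/- (2 to 6, 1 with normexp) and 7 for dnmt3bb.2-/- (6 to 9). The causes of these shifts were not tested.

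With the replicate number as a block, the count was 1 at 1-2 cell and 0 at 5-somite for MZdnmt3aa-/- and 0 at 1-2 cell, 2 at shield, 2 at 1 dpf and 0 at 2 dpf for dnmt3bb.2-/-. The numbers did not pair the samples. The slide block could not be fitted for MZdnmt3aa-/- at 1-2 cell and 1 dpf or for WT at 1 dpf against 5-somite, the 2-fold requirement has no meaning for the F test, and dnmt3bb.2-/- at 5-somite has no slide term because each slide held 1 genotype. Signals of pax6a, her4.1, neurod1, neurod4 and elavl3 at 1-2 cell and shield lay mostly below background, where values have no reliable order.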
